A study of Mus musculus with 9 samples.

Results

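The genes described here are 38 enzymes, transporters and regulators of fatty acid and cholesterol metabolism. They were chosen by name, with earlier results of these data known, and 36 of them were measured among the 19938 genes tested. Each was taken at the row of the array that carries its symbol alone, or, where several rows did, at the one of greatest average level across the 9 arrays. The acyl-CoA synthetase gene Acsl3 shared its row with another gene, and it and Acsl1 were not analysed here. The study sorted innate lymphocytes from the intraepithelial layer of the small intestine of NOD-SCID mice, a strain without mature T and B cells, aged 8 to 10 weeks, and measured their RNA on Affymetrix Mouse Gene 1.0 ST arrays. All cells were gated as CD3-negative and CD45-positive and were sorted to a purity above 98%. Within that gate one population carried both markers (Ly49E+CD8aa+), another only Ly49E (Ly49E+CD8aa-) and the last only CD8aa (Ly49E-CD8aa+), and the labels number 3 biological replicates in each. No population negative for both markers is among the samples. How many mice contributed to each array is unknown here. If mice were pooled, p-values measure only the spread between the pools.

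Fatty acids are built from acetyl-CoA in the cytosol, lengthened by elongases and given double bonds by desaturases, and they are burnt in mitochondria after import by the carnitine shuttle. Cholesterol is made from the same acetyl-CoA through the mevalonate pathway. Srebf1 and Srebf2 encode the SREBP transcription factors, which induce both branches when membrane sterol is low, and Insig1 retains them in the endoplasmic reticulum when sterol is plentiful. In lymphocytes these pathways supply membrane for growth, and the enterocytes beside them in the gut absorb dietary lipid.

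Values are log2 expression, so a difference of 1 is a doubling. A gene was called different where limma's adjusted p over the 19938 genes was under 0.05. The Ly49E comparison is Ly49E+CD8aa+ minus Ly49E-CD8aa+, the CD8aa comparison is Ly49E+CD8aa+ minus Ly49E+CD8aa-, and the single-marker comparison is Ly49E+CD8aa- minus Ly49E-CD8aa+. Each pair of these comparisons shares the arrays of a population, so what they have in common is partly built in.

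Klra5, which encodes Ly49E, read 11.31 to 11.51 in the Ly49E+ populations and 5.48 to 7.31 in the Ly49E-CD8aa+ arrays. Cd8a read 11.25 to 11.50 in the Ly49E+CD8aa- arrays and 12.51 to 12.64 in the others. Cd8b1, the CD8 beta chain, ran the other way, with 8.11 to 8.54 in the Ly49E+CD8aa- arrays and 5.15 to 5.40 in the others (limma adjusted p = 9.93e-07 in the CD8aa comparison). Cd3e, a chain of the CD3 complex that the gate excluded at the surface, read 10.35 to 11.23 in the Ly49E+CD8aa- arrays and 11.57 to 11.79 in the others, a CD8aa difference of 1.05 (limma adjusted p = 0.0263). Ptprc, which encodes CD45, lay at 11.74 to 11.92 on all arrays. The mean over 11 measured intraepithelial lymphocyte markers lay between 11.41 and 11.65 on all arrays, but single markers differed in both directions. Of the 11, limma called 2 higher and 1 lower in the CD8aa comparison (0.476% and 1.22% of all genes). In the single-marker comparison it called 2 higher and 2 lower (1.35% and 0.802% of all genes). The CD8aa differences called were -1.59 for Ccr9, 0.40 for Il2rb and 0.31 for Itgae (limma adjusted p = 0.00323, 0.0248 and 0.04). The arrays also carried transcripts of intestinal epithelium. The mean over 24 measured enterocyte markers ran from 7.63 to 8.05 in the Ly49E+CD8aa+ arrays and from 7.41 to 8.12 in the Ly49E+CD8aa- arrays. In the Ly49E-CD8aa+ arrays it ran from 7.39 to 8.12, so the populations overlapped fully. The highest enterocyte mean was that of replicate 1 in each population. By limma 0 of 24 were called in any comparison, where 0.0201% to 1.35% of all genes were called in a given direction. At an unadjusted p under 0.05, 1 was higher in the Ly49E comparison (1.71% of all genes) and 2 were higher in the CD8aa comparison (4.96%). In the single-marker comparison 1 was higher and 1 lower (4.55% and 5.89%). Macrophage and monocyte markers (16 measured) averaged 5.62 to 5.95 in the Ly49E-CD8aa+ arrays against 5.24 to 5.28 in the Ly49E+CD8aa+ arrays and 5.14 to 5.19 in the Ly49E+CD8aa- arrays, and dendritic cell markers (16 measured) averaged 6.79 to 7.02 against 6.37 to 6.42 and 6.45 to 6.53. Of the 16 macrophage and monocyte markers, limma called 3 lower in the Ly49E comparison (0.11% of all genes) and 4 lower in the single-marker comparison (0.802% of all genes). Of the 16 dendritic cell markers, it called 2 lower in the Ly49E comparison. In the single-marker comparison 4 dendritic cell markers were called lower and 1 higher (1.35% of all genes were higher). Cybb, a subunit of the phagocyte oxidase, read 6.09 to 6.97 in the Ly49E-CD8aa+ arrays and 3.81 to 4.15 in the others, and Cd180 7.07 to 7.62 against 4.99 to 5.21. Mpeg1 averaged 7.38 in the Ly49E-CD8aa+ arrays, 5.63 in the Ly49E+CD8aa+ arrays and 5.42 in the Ly49E+CD8aa- arrays. Csf1r and Adgre1 lay at 4.99 to 5.35 and 3.40 to 3.50, with overlapping populations. The part of these cells in the lipid results was not tested. In sorted bulk RNA, fewer cells of a type and less RNA per cell cannot be told apart.

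Promoter stretches are shown for Elovl5, a called member, and for the sterol synthesis genes that had a promoter window, whatever their test. Of the 36 measured members, 28 had a promoter window in the RefSeq table for GRCm38.p6, running from 250 bases before to 50 after the gene's start. The called members Scd2 and Abcd2 and the sterol synthesis genes Fdps, Fdft1 and Sqle had no window and were not searched. Each stretch below is 100 bases upstream of a start, chosen for holding the most matches, printed 5′ to 3′ on the gene's strand, and capitals mark a sterol regulatory element (TCACNCCAC), an E-box (CACGTG) or a CCAAT box (CCAAT, or ATTGG on the other strand). The first is the elongase gene Elovl5, chr9:77917204-77917303 on the plus strand, and the others are enzymes of sterol synthesis, at chr13:119690214-119690313 (plus) for Hmgcs1, chr13:8885506-8885605 (plus) for Idi1, chr10:76531505-76531604 (plus) for Lss, chr5:4104698-4104797 (minus) for Cyp51 and chr7:143830114-143830213 (plus) for Dhcr7.
Elovl5: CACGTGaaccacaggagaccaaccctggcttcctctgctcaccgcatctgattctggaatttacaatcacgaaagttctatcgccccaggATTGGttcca
Hmgcs1: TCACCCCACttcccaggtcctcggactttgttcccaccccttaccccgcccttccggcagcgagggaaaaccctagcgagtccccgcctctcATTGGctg
Idi1: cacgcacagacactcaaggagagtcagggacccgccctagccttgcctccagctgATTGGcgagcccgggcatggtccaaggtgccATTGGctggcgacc
Lss: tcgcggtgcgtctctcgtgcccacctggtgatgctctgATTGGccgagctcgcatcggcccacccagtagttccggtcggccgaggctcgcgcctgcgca
Cyp51: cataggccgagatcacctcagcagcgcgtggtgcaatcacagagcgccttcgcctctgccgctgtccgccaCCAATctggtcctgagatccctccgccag
Dhcr7: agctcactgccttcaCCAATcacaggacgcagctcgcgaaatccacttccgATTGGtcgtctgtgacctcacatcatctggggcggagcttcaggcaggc

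The sterol regulatory element, the site that SREBPs are known to bind, was found in this exact form in 1 of the 28 members, Hmgcs1, 137 bases before the start, and in 1.44% of the 27025 genes with a window. A CCAAT box, bound by NF-Y, was found in all 5 sterol synthesis genes with a window (Hmgcs1, Idi1, Lss, Cyp51 and Dhcr7), in 15 of the 28 members and in 41.1% of all genes. A GC box (GGGCGG, or CCGCCC on the other strand), bound by Sp1, was also in all 5 and in 20 of the 28, against 38.2% of all genes. The E-box, which reads the same on both strands, was in 4 members, namely Abca1, Dhcr7, Elovl5 and Insig1, and in 8.09% of all genes. The DR1 element, the direct repeat that PPAR factors bind, searched on both strands, was in 0 of the 28 and in 0.0481% of all genes. A gene with several starts counts where any of its windows holds the motif, and the E-box of Dhcr7 lies at another start than the stretch shown. In 3 places 2 matches of the members share bases, in Acsl4, Elovl1 and Fasn. A match describes the sequence only.

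The 5 calls among the members, of 3 genes, were all of lower levels in the Ly49E+CD8aa- arrays, the population without CD8aa: Elovl5 and Abcd2 in both comparisons and Scd2 in the CD8aa comparison. In 12 of 36 members all 3 arrays of Ly49E+CD8aa- lay below all 6 other arrays, against 3.52% of all genes, and these 12 were Elovl5, Fads1, Scd2, Acly, Abcd2, Hmgcs1, Fdps, Fdft1, Lss, Dhcr7, Insig1 and Srebf2. The population with the lowest mean was Ly49E+CD8aa- in 25 of 36 members and in 45.8% of all genes. The differences were small, and few passed the test. The moderated F test over the 3 populations called 2 of 36 members, Elovl5 (adjusted p = 0.0284) and Abcd2 (adjusted p = 0.02), against 2.03% of all genes, and 14 members had an unadjusted p under 0.05, against 9.05%. In the CD8aa comparison 3 members were higher (0.476% of all genes) and 0 lower (1.22% of all genes), and in the single-marker comparison 2 were lower (0.802% of all genes) and 0 higher (1.35% of all genes). At an unadjusted p under 0.05, 14 members were higher and 0 lower in the CD8aa comparison, where 4.96% and 4.47% of all genes were, and 13 were lower and 0 higher in the single-marker comparison, where 5.89% and 4.55% were. The arrays of a comparison did not overlap in 13 members that were higher and 0 that were lower in the CD8aa comparison (7.41% and 5.52% of all genes), and in 13 that were lower and 0 that were higher in the single-marker comparison (7.45% and 5.29%). Differences were above 0 in 26 members in the CD8aa comparison (59.5% of all genes) and in 7 in the single-marker comparison (41.2%). The median difference over the members was 0.15 in the CD8aa comparison and -0.19 in the single-marker comparison, against 0.03 and -0.02 over all genes. Because the members were chosen with earlier results of these data known, the counts set beside all genes are no independent test.

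**Figure D1:**
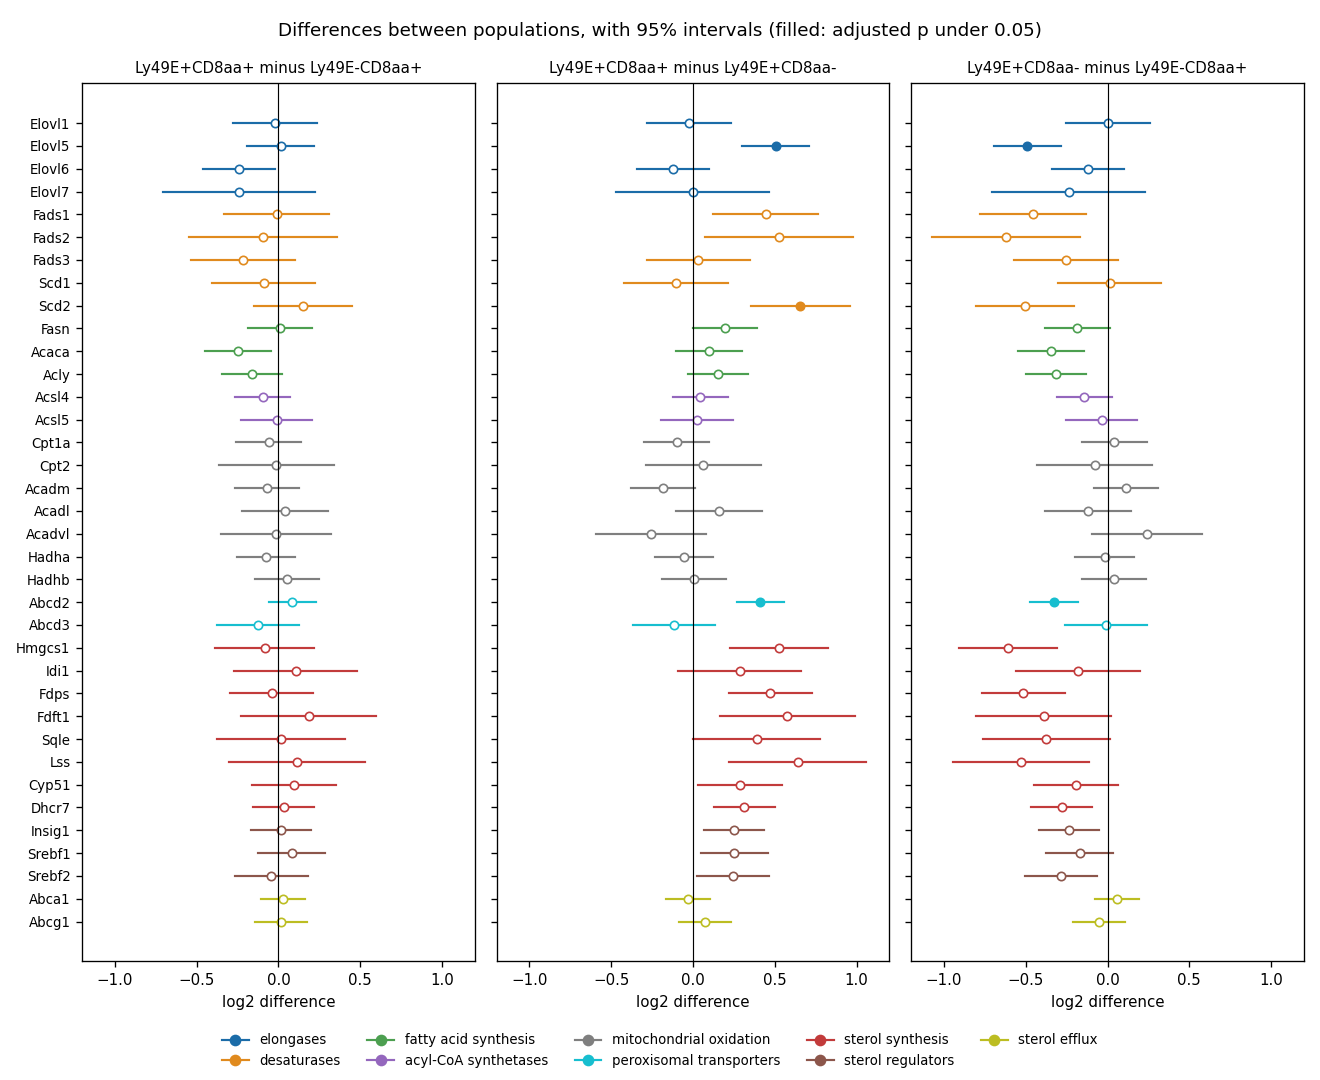
Log2 difference of each of the 36 measured genes (rows, coloured by role) in the 3 comparisons, with its 95% interval from limma (horizontal bar). Filled points passed an adjusted p of 0.05. In the middle and right panels the sterol synthesis genes all lie on the side of lower levels in the Ly49E+CD8aa- arrays, while the mitochondrial oxidation genes lie on both sides of 0, and in the left panel no point is filled.

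Elongases lengthen fatty acids by adding carbons from malonyl-CoA, and Elovl5, which extends polyunsaturated fatty acids, was the elongase that differed. Elovl5 read 11.31, 11.35 and 11.13 in the Ly49E+CD8aa+ arrays, 11.33, 11.23 and 11.20 in the Ly49E-CD8aa+ arrays, and 10.87, 10.81 and 10.61 in the Ly49E+CD8aa- arrays. All 3 arrays without CD8aa were below the other 6. It was higher in the Ly49E+CD8aa+ arrays than in the Ly49E+CD8aa- arrays by 0.51 (SE 0.0907, limma adjusted p = 0.0253, 3 arrays in each), or 1.42-fold. It was lower in the Ly49E+CD8aa- arrays than in the Ly49E-CD8aa+ arrays, with a difference of -0.49 (SE 0.0907, limma adjusted p = 0.0248), 1.41-fold. The CD8aa call was lost on leaving out 5 of the 9 arrays in turn (Ly49E+CD8aa+ replicates 1 and 2, Ly49E+CD8aa- replicates 2 and 3, Ly49E-CD8aa+ replicate 2; limma adjusted p from 0.0504 to 0.109), and the difference ran from 0.43 to 0.57 over all 9 omissions. The single-marker call failed when Ly49E+CD8aa- replicate 2 or 3 or any Ly49E-CD8aa+ array was left out (limma adjusted p from 0.0658 to 0.0943). With only the 6 arrays compared, limma's adjusted p was 0.0938 and 0.0655.

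The other elongases did not pass in any comparison. Elovl1, which makes very long saturated chains, differed by -0.02 in both the Ly49E and the CD8aa comparison. Elovl6, which extends palmitate to stearate, read 8.36, 8.68 and 8.64 in the Ly49E+CD8aa+ arrays, 8.69, 8.68 and 8.68 in the Ly49E+CD8aa- arrays and 8.67, 8.89 and 8.84 in the Ly49E-CD8aa+ arrays. Its highest mean was therefore in the Ly49E-CD8aa+ arrays, and its difference in the Ly49E comparison was -0.24 (SE 0.0972, limma adjusted p = 1), against -0.12 in the CD8aa comparison (limma adjusted p = 0.775). Elovl7 lay near the 25th percentile of the arrays (4.40 to 4.47), with 5.06, 4.08 and 4.51 in the Ly49E-CD8aa+ arrays, a spread wider than any difference between its means.

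Desaturases insert double bonds, and Scd2, a stearoyl-CoA desaturase that makes monounsaturated fatty acids, showed the largest difference among members in the CD8aa comparison. Scd2 read 8.95, 9.23 and 9.36 in the Ly49E+CD8aa+ arrays, 8.29, 8.70 and 8.59 in the Ly49E+CD8aa- arrays, and 8.96, 8.98 and 9.16 in the Ly49E-CD8aa+ arrays. The population without CD8aa again lay below the other 6 arrays. The difference in the CD8aa comparison was 0.66 (SE 0.133, limma adjusted p = 0.0475, 1.58-fold), and the one in the single-marker comparison, -0.51, did not pass (limma adjusted p = 0.13). Scd2 is a member of a family of similar genes and is open to cross-hybridisation. Its relative Scd1 lay at 3.22 to 3.72 on all 9 arrays, below the 25th percentile of the arrays, with no separation of populations. Scd3 (4.18 to 4.56 in the Ly49E+CD8aa- arrays against 4.72 to 4.93) and Scd4 (4.42 to 4.58 against 4.66 to 5.30) were lowest in the same population as Scd2 and did not pass (limma adjusted p = 0.198 and 0.772 in the CD8aa comparison). Cross-hybridisation between these genes was not tested. The Scd2 call passed without Ly49E+CD8aa+ replicate 1 and was lost without any 1 of the other 8 arrays (limma adjusted p from 0.0586 to 0.169, differences from 0.54 to 0.74), and also with the 6 arrays alone (0.159), with centring on array medians (0.0794) and with every row kept as its own feature (0.0551).

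Fads1 and Fads2, the delta-5 and delta-6 desaturases of polyunsaturated fatty acids, lay on the same side as Elovl5 but did not pass the test. Fads1 read 8.04, 7.84 and 7.82 in the Ly49E+CD8aa+ arrays, 7.54, 7.41 and 7.41 in the Ly49E+CD8aa- arrays and 7.78, 7.68 and 8.27 in the Ly49E-CD8aa+ arrays. Fads2 read 7.16, 7.31 and 7.44, then 6.48, 7.28 and 6.58, then 7.43, 7.19 and 7.58 in the same order of populations. Replicate 2 of Ly49E+CD8aa- thus lay among the CD8aa+ arrays for Fads2, while for Fads1 the groups did not overlap. The differences in the CD8aa comparison were 0.44 (SE 0.143) and 0.53 (SE 0.2), with limma adjusted p of 0.284 and 0.413, and in the single-marker comparison they were -0.46 and -0.62 (limma adjusted p = 0.232 and 0.252). Without Ly49E-CD8aa+ replicate 3 the CD8aa difference of Fads1 passed (limma adjusted p = 0.0471). Without Ly49E+CD8aa- replicate 2, Fads2 passed in the CD8aa and the single-marker comparison (limma adjusted p = 0.0309 and 0.0152), with differences of 0.78 and -0.87. Fads3, a desaturase of sphingoid bases, differed by 0.03 in the CD8aa comparison.

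**Figure D2:**
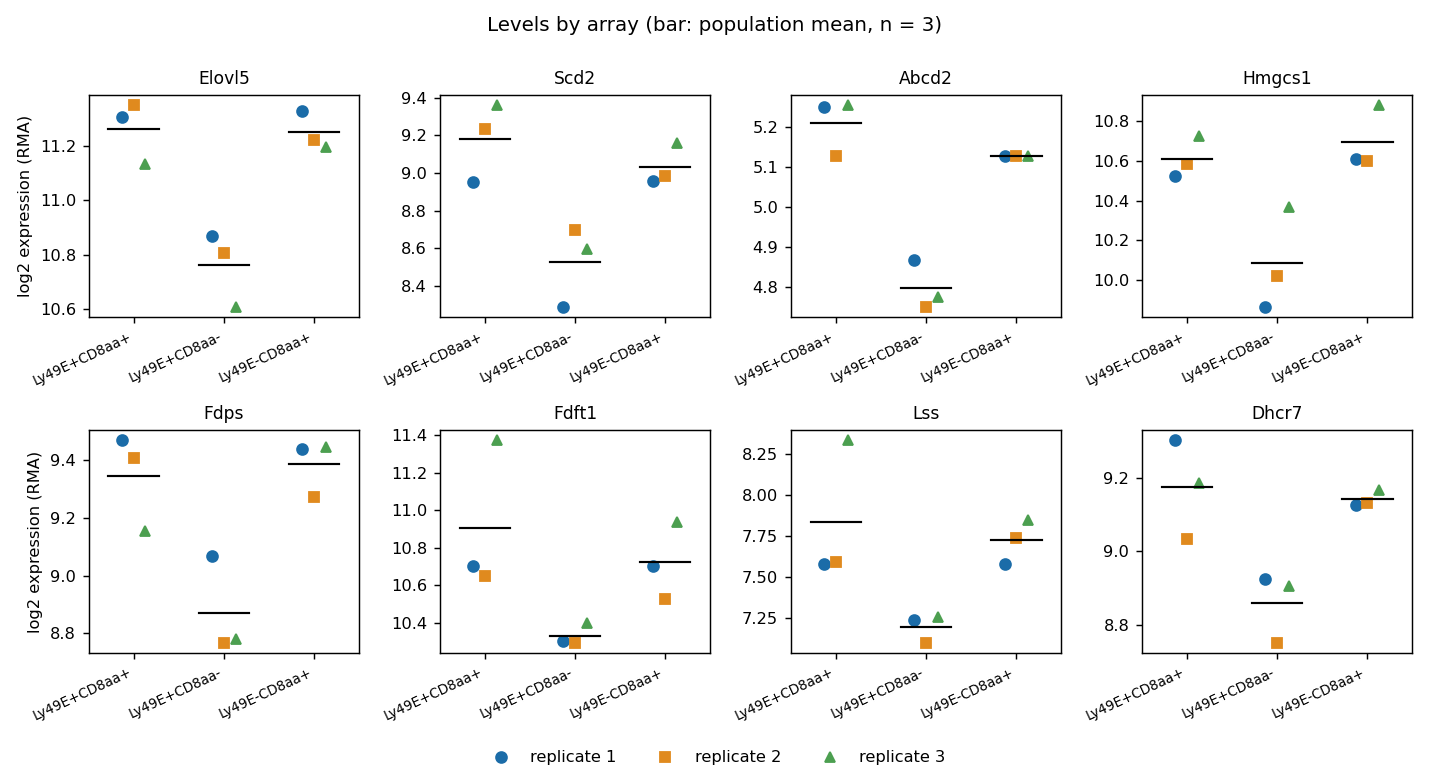
Log2 expression by array (points, shaped and coloured by replicate number) in the 3 populations for Elovl5, Scd2, Abcd2 and 5 sterol synthesis genes, with a bar at each population mean. Vertical axes differ between panels and do not start at 0. The 5 sterol synthesis genes shown are those of 8 in which the 3 arrays of Ly49E+CD8aa- lie below the other 6, so their order follows from the choice. Sqle, Cyp51 and Idi1, in which they do not, are not shown. In the called members Elovl5, Scd2 and Abcd2 the 3 arrays of Ly49E+CD8aa- also lie below the other 6. The Ly49E-CD8aa+ arrays of Abcd2 share 1 value.

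The genes that start fatty acid synthesis did not pass. Acly, which makes cytosolic acetyl-CoA from citrate, read 8.98, 9.01 and 9.01 in the Ly49E+CD8aa+ arrays, 8.96, 8.89 and 8.70 in the Ly49E+CD8aa- arrays and 9.26, 9.14 and 9.09 in the Ly49E-CD8aa+ arrays. Its 3 populations did not overlap, with Ly49E-CD8aa+ the highest, and the single-marker difference was -0.32 (SE 0.0812, limma adjusted p = 0.119). Acaca, the acetyl-CoA carboxylase that commits carbon to fatty acids, was also highest in the Ly49E-CD8aa+ arrays, with differences of -0.25 in the Ly49E comparison (limma adjusted p = 1) and -0.34 in the single-marker comparison (limma adjusted p = 0.124), and a second, dimmer row of Acaca gave -0.39 and -0.53. Fasn, the fatty acid synthase itself, read 8.66, 8.74 and 8.64 in the Ly49E+CD8aa+ arrays, 8.42, 8.64 and 8.40 in the Ly49E+CD8aa- arrays and 8.79, 8.58 and 8.64 in the Ly49E-CD8aa+ arrays, with overlapping populations and a CD8aa difference of 0.20 (SE 0.0867, limma adjusted p = 0.537). The acyl-CoA synthetases Acsl4 and Acsl5, which activate fatty acids for use, differed by -0.14 to 0.04 over the 3 comparisons. By limma 0 of these 2 passed, also at an unadjusted p under 0.05. At that unadjusted p, 4.96% of all genes were higher and 4.47% lower in the CD8aa comparison. In the single-marker comparison 4.55% were higher and 5.89% lower, so 0 of 2 is near these shares.

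In sterol synthesis every measured member lay on the same side. All 8 enzymes were higher in the Ly49E+CD8aa+ arrays than in the Ly49E+CD8aa- arrays in mean level, by 0.29 to 0.64 with a median of 0.43, and all 8 were lower in the Ly49E+CD8aa- arrays than in the Ly49E-CD8aa+ arrays, with differences from -0.61 to -0.18 and a median of -0.38. In the CD8aa comparison 59.5% of all genes had a difference above 0, and in the single-marker comparison 41.2% did. By limma's adjusted p, 0 of 8 passed in either comparison. Of all genes, 0.476% were called higher in the CD8aa comparison and 0.802% lower in the single-marker comparison. At an unadjusted p under 0.05, 6 of the 8 were higher in the CD8aa comparison (4.96% of all genes) and 4 lower in the single-marker comparison (5.89% of all genes). The signs held for all 8 in each alternative run, including the omission of each array in turn. Averaged over the 8 enzymes, the arrays read 9.44, 9.45 and 9.70 in the Ly49E+CD8aa+ arrays, 9.02, 9.05 and 9.21 in the Ly49E+CD8aa- arrays, and 9.36, 9.41 and 9.65 in the Ly49E-CD8aa+ arrays. Replicate 3 was the highest of each population in this mean, and all 3 arrays of Ly49E+CD8aa- lay below the other 6. The 8 enzymes were measured on the same arrays, so their signs and counts are not 8 separate results.

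Hmgcs1, the HMG-CoA synthase at the entry of the mevalonate pathway, read 10.52, 10.59 and 10.72 in the Ly49E+CD8aa+ arrays, 9.87, 10.02 and 10.37 in the Ly49E+CD8aa- arrays and 10.61, 10.60 and 10.88 in the Ly49E-CD8aa+ arrays. The population without CD8aa lay below the other 6 arrays, its own spread being the widest. The differences were 0.53 (SE 0.133, limma adjusted p = 0.122) in the CD8aa comparison and -0.61 (SE 0.133, limma adjusted p = 0.0575) in the single-marker comparison. Without Ly49E+CD8aa- replicate 3 both passed (limma adjusted p = 0.0346 and 0.0172, with differences of 0.67 and -0.75). The single-marker difference of Hmgcs1 also passed with both filters on low levels, with quantile normalization again, with an intensity trend and with array weights (limma adjusted p from 0.0399 to 0.049). Fdps, which makes farnesyl pyrophosphate, read 9.47, 9.41 and 9.16, then 9.07, 8.77 and 8.78, then 9.44, 9.27 and 9.45 in the same order of populations, again without overlap. Its differences were 0.47 (SE 0.112, limma adjusted p = 0.0902) and -0.51 (SE 0.112, limma adjusted p = 0.0569). The latter passed without Ly49E+CD8aa+ replicate 3 (limma adjusted p = 0.0458) and without Ly49E+CD8aa- replicate 1 (limma adjusted p = 0.037), and also with both filters, with quantile normalization again and with centring (limma adjusted p from 0.0388 to 0.0478).

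Fdft1, the squalene synthase that commits farnesyl pyrophosphate to sterols, read 10.70, 10.65 and 11.37 in the Ly49E+CD8aa+ arrays, 10.30, 10.30 and 10.40 in the Ly49E+CD8aa- arrays and 10.70, 10.53 and 10.94 in the Ly49E-CD8aa+ arrays. Replicate 3 of Ly49E+CD8aa+ stood well above its group, and the same array stood apart in Lss, the lanosterol synthase, which read 7.58, 7.59 and 8.34, then 7.24, 7.10 and 7.25, then 7.58, 7.74 and 7.85. In both genes the 3 arrays of Ly49E+CD8aa- were the lowest of the 9. The CD8aa differences were 0.58 for Fdft1 (SE 0.183, limma adjusted p = 0.274) and 0.64 for Lss (SE 0.185, limma adjusted p = 0.202). Without Ly49E+CD8aa+ replicate 3 they were 0.34 and 0.39, and the Lss difference in the single-marker comparison, -0.53 with all arrays (limma adjusted p = 0.311), then passed (limma adjusted p = 0.0214). A second row of Fdft1 gave 0.61 in the CD8aa comparison (limma adjusted p = 0.38).

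The remaining sterol enzymes differed less. Dhcr7, which carries out the last reduction to cholesterol, read 9.30, 9.04 and 9.19 in the Ly49E+CD8aa+ arrays, 8.92, 8.75 and 8.91 in the Ly49E+CD8aa- arrays and 9.13, 9.13 and 9.17 in the Ly49E-CD8aa+ arrays, without overlap and with a CD8aa difference of 0.31 (SE 0.0824, limma adjusted p = 0.143). Sqle, the squalene epoxidase, Cyp51, the lanosterol demethylase, and Idi1, the isopentenyl diphosphate isomerase, differed by 0.39, 0.29 and 0.29 (limma adjusted p = 0.532, 0.451 and 0.682). Their populations overlapped in the single-marker comparison, where the differences were -0.37, -0.19 and -0.18. In the CD8aa comparison those of Cyp51 and Idi1 overlapped as well, and those of Sqle did not. A second row of Idi1 gave 0.29 in the CD8aa comparison.

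The 3 regulators among the members lay on the same side as the enzymes, and 0 of 3 passed limma's adjusted threshold in any comparison. Of all genes, 0.476% were called higher in the CD8aa comparison and 0.802% lower in the single-marker comparison. At an unadjusted p under 0.05, 3 regulators were higher in the CD8aa comparison (4.96% of all genes) and 2 lower in the single-marker comparison (5.89% of all genes). Srebf2, the SREBP that mainly drives sterol genes, read 10.29, 10.05 and 9.99 in the Ly49E+CD8aa+ arrays, 9.98, 9.86 and 9.77 in the Ly49E+CD8aa- arrays and 10.27, 10.08 and 10.11 in the Ly49E-CD8aa+ arrays. Srebf1, which mainly drives fatty acid genes, read 8.46, 8.39 and 8.22, then 8.22, 8.09 and 8.01, then 8.39, 8.22 and 8.22. For Srebf2 the population without CD8aa was below the other arrays by a narrow margin, and for Srebf1 it overlapped them. Insig1, the sterol-sensitive brake on SREBPs and itself an SREBP target, read 10.04, 10.01 and 10.21, then 9.73, 9.90 and 9.89, then 10.06, 10.01 and 10.15, without overlap of the population lacking CD8aa. The CD8aa differences were 0.24, 0.25 and 0.25 (limma adjusted p = 0.457, 0.368 and 0.294) for Srebf2, Srebf1 and Insig1. Outside the members, the SREBP regulators Scap and Insig2 differed by 0.05 and -0.06 in the CD8aa comparison (limma adjusted p = 0.92 and 0.955). In the single-marker comparison they differed by -0.04 and 0.04, so Insig2 lay on the other side. The efflux transporters Abca1 and Abcg1, which export cholesterol and are known targets of LXR, differed by at most 0.07 in size in any comparison, Abca1 by 0.06 in the single-marker comparison (limma adjusted p = 0.813). Abca1 read 5.05 on 6 of 9 arrays and 5.02, 5.11 and 4.94 on the others, and Abcg1 ran from 7.37 to 7.62 with overlapping populations.

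Peroxisomes take in very long chain fatty acids through ABC transporters, and Abcd2 was called where Abcd3 was not. Abcd2 read 5.25, 5.13 and 5.26 in the Ly49E+CD8aa+ arrays, 4.87, 4.75 and 4.78 in the Ly49E+CD8aa- arrays and 5.13 on all 3 arrays of Ly49E-CD8aa+. The population without CD8aa was below the rest, at a level between the 25th percentile (4.40 to 4.47) and the median (5.76 to 5.82) of the arrays. The CD8aa difference was 0.41 (SE 0.0641, limma adjusted p = 0.0113, 1.33-fold) and the single-marker difference was -0.33 (SE 0.0641, limma adjusted p = 0.0334, 1.25-fold). The value 5.13 was identical on 4 arrays, so the spread behind these tests is partly 0. Identical values on at least 2 of the 9 arrays occurred in 60.5% of all genes and in 16 members, and 3 identical values within a population in 6.04% of all genes and in 1 member, Abcd2. The CD8aa call did not survive the omission of Ly49E+CD8aa+ replicate 3 or of Ly49E+CD8aa- replicate 2 or 3 (limma adjusted p from 0.0521 to 0.0541). The single-marker call was lost without any 1 of 7 arrays, the exceptions being Ly49E+CD8aa+ replicates 1 and 2 (limma adjusted p from 0.054 to 0.127), with the 6 arrays alone (0.0642), with quantile normalization again (0.0665) and with centring (0.0613). Abcd3, the transporter of branched and long dicarboxylic chains, differed by -0.12 in the CD8aa comparison (limma adjusted p = 0.827).

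Mitochondrial oxidation of fatty acids showed no common direction. The group holds Cpt1a and Cpt2 of the carnitine shuttle, the acyl-CoA dehydrogenases Acadm, Acadl and Acadvl, and Hadha and Hadhb of the trifunctional protein. Of 7 members, 0 passed in any comparison by limma, also at an unadjusted p under 0.05. At that unadjusted p, 4.96% of all genes were higher and 4.47% lower in the CD8aa comparison. In the single-marker comparison 4.55% were higher and 5.89% lower, and in the Ly49E comparison 1.71% and 2.48%, so 0 of 7 is near these shares. The CD8aa difference was above 0 in 3 members and below 0 in 4, against 59.5% of all genes above 0. Cpt1a, the gate to mitochondrial import, read 7.38, 7.26 and 7.39 in the Ly49E+CD8aa+ arrays, 7.34, 7.40 and 7.60 in the Ly49E+CD8aa- arrays and 7.38, 7.32 and 7.52 in the Ly49E-CD8aa+ arrays. The populations overlapped, and its differences were -0.10 (CD8aa), 0.04 (single-marker) and -0.06 (Ly49E). The largest differences in the group were those of Acadvl, at -0.26 (CD8aa, 95% interval -0.59 to 0.08) and 0.24 (single-marker), with limma adjusted p of 0.681 and 0.659, and of Acadm, at -0.19 and 0.11, with 0.572 and 0.737, so both had their highest mean in the Ly49E+CD8aa- arrays, opposite to the sterol genes. Over the 7 genes the 95% intervals in the CD8aa comparison reached from -0.59 to 0.42. Each interval is that of a single gene, so this range is no 95% interval for the group. The mean over the 7 genes ran from 8.48 to 8.61 in the Ly49E+CD8aa+ arrays, from 8.51 to 8.72 in the Ly49E+CD8aa- arrays and from 8.50 to 8.63 in the Ly49E-CD8aa+ arrays.

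**Figure D3:**
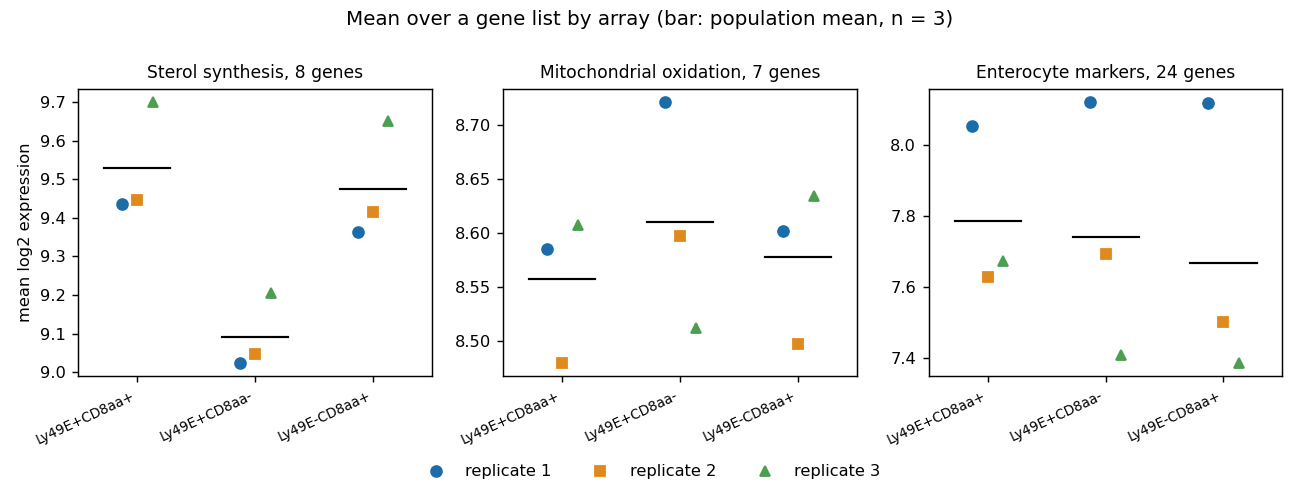
Mean log2 expression by array over the 8 sterol synthesis genes, the 7 mitochondrial oxidation genes and the 24 measured enterocyte markers, with points by replicate number and a bar at each population mean. Vertical axes differ and do not start at 0. Sterol synthesis is lowest in the Ly49E+CD8aa- arrays (9.02 to 9.21), while the oxidation genes and the enterocyte markers overlap between the populations, and replicate 1 has the highest enterocyte mean in each.

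Markers of other cells were set beside these results. NK and innate lymphoid markers were highest in the population that was lowest in sterol genes. The mean over 11 measured markers ran from 9.06 to 9.25 in the Ly49E+CD8aa- arrays, against 6.10 to 6.15 in the Ly49E+CD8aa+ arrays and 6.18 to 6.31 in the Ly49E-CD8aa+ arrays. All 11 were higher in each Ly49E+CD8aa- array than in any Ly49E+CD8aa+ array (5.52% of all genes), with a median CD8aa difference of -2.83. In that comparison limma called 8 of 11 lower (1.22% of all genes). Ncr1, the NKp46 receptor, read 9.74, 9.60 and 9.74 in the Ly49E+CD8aa- arrays and 3.78 to 4.65 on the other arrays, and Il7r, the interleukin-7 receptor, read 10.37, 10.12 and 10.61 against 4.64 to 6.82. The populations therefore differ widely in lymphocyte identity genes, and the part of this in the lipid differences was not tested. The enterocyte means did not separate Ly49E+CD8aa- from the others, with 7.41 to 8.12 against 7.39 to 8.12 over the other 6 arrays.

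The Ly49E comparison, between the populations that both carry CD8aa, called 0 of 36 members in either direction by limma, against 0.0201% of all genes higher and 0.11% lower. At an unadjusted p under 0.05, 0 members were higher and 2 lower, Acaca and Elovl6, where 1.71% and 2.48% of all genes were. Arrays did not overlap in 2 members that were lower, Acaca and Acly, and in 0 that were higher (3.38% and 2.88% of all genes), and 16 members had a difference above 0 (49.7% of all genes). The median difference was -0.01 and the range ran from -0.25 (Acaca) to 0.19 (Fdft1). After Fdft1 the most positive were Scd2 at 0.15 and Lss at 0.11, and after Acaca the most negative were Elovl6 and Elovl7, both at -0.24. The 95% intervals reached 0.60 (Fdft1) upward and -0.71 (Elovl7) downward.

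Other genes of lipid metabolism were described from 7 lists of 115 genes, of which 104 were measured. By limma 0 were higher and 2 lower in the CD8aa comparison (0.476% and 1.22% of all genes), and 3 were higher and 2 lower in the single-marker comparison (1.35% and 0.802% of all genes). Sterol synthesis and uptake beyond the members (15 measured) had 0 called in any comparison, 5 higher at an unadjusted p under 0.05 in the CD8aa comparison (4.96% of all genes) and 4 lower in the single-marker comparison (5.89% of all genes), and in 4 of 15 the 3 arrays of Ly49E+CD8aa- lay below the other 6 (3.52% of all genes). Among them, Tm7sf2, a sterol reductase, had a CD8aa difference of 0.34 (limma adjusted p = 0.0799). Nsdhl, a sterol dehydrogenase, had a single-marker difference of -0.38 (limma adjusted p = 0.0542). Both are named after their values were seen, and not all of the 15 lay on their side. The CD8aa difference was above 0 in 12 and below 0 in 3 (59.5% of all genes above 0). The single-marker difference was below 0 in 10 and above 0 in 5 (41.2% of all genes above 0). Ggps1 differed by -0.12 and 0.18 in these comparisons, and Mvk by -0.06 and 0.03. The 19 measured genes of fatty acid oxidation beyond the members had 0 called and medians of -0.01 and 0.04 in the CD8aa and single-marker comparisons.

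The 2 lipid genes with the largest differences lay outside the member set and ran the other way. Mgll, the lipase that splits monoacylglycerols, read 4.72, 4.78 and 4.77 in the Ly49E+CD8aa+ arrays, 6.94, 6.78 and 6.60 in the Ly49E+CD8aa- arrays and 4.82, 4.71 and 4.85 in the Ly49E-CD8aa+ arrays. It was 4.04-fold higher in the Ly49E+CD8aa- arrays than in the Ly49E+CD8aa+ arrays (difference -2.02 in the CD8aa comparison, SE 0.0908, limma adjusted p = 3.82e-06). Against Ly49E-CD8aa+ the difference was 1.98 (SE 0.0908, limma adjusted p = 4.29e-06, 3.94-fold). These calls held in all 18 alternatives that tested the gene. Slc27a6, a fatty acid transport protein, read 4.57, 4.42 and 4.10, then 7.80, 6.81 and 7.83, then 6.20, 4.68 and 4.49 in the same order. Ly49E+CD8aa- was above all other arrays, and replicate 1 of Ly49E-CD8aa+ lay between. The difference was -3.11 in the CD8aa comparison (SE 0.437, limma adjusted p = 0.00648, 8.66-fold), held in all 18 alternatives, and 2.36 in the single-marker comparison (SE 0.437, limma adjusted p = 0.0257, 5.12-fold). The latter call was lost without any 1 of 7 arrays (limma adjusted p from 0.0511 to 0.109), the exceptions being Ly49E+CD8aa- replicate 2 and Ly49E-CD8aa+ replicate 1, and with the 6 arrays alone (0.135).

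**Figure D4:**
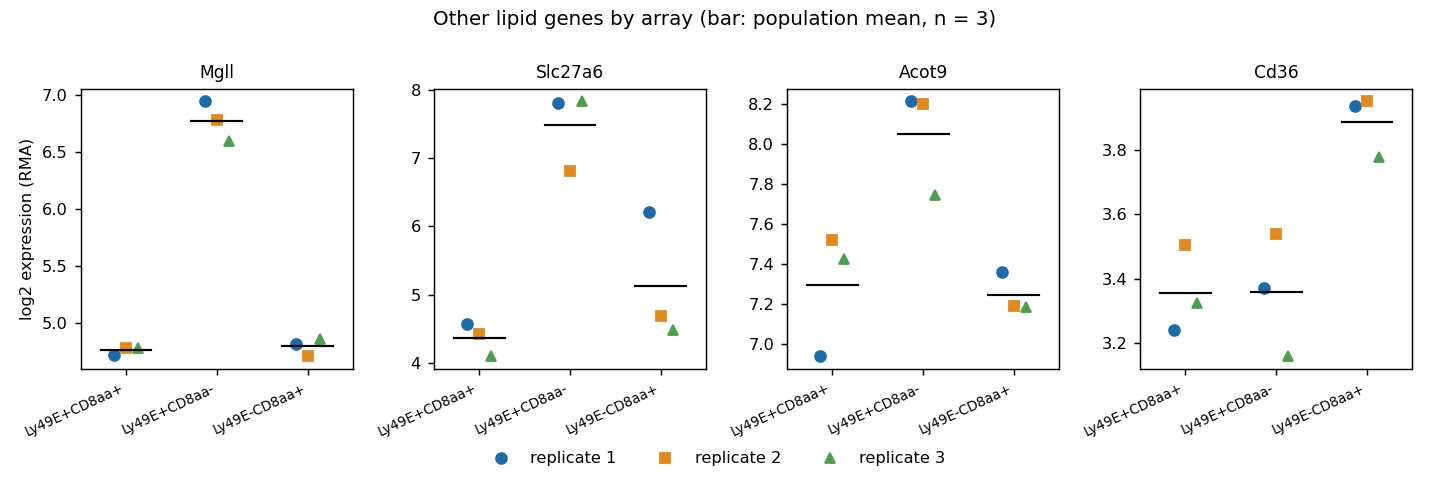
Log2 expression by array for 4 other lipid genes, Mgll, Slc27a6, Acot9 and Cd36, in the 3 populations, with points by replicate number and a bar at each population mean; vertical axes differ and do not start at 0. Mgll and Slc27a6 are highest in the Ly49E+CD8aa- arrays (6.60 to 6.94 and 6.81 to 7.83), and Cd36 is highest in the Ly49E-CD8aa+ arrays (3.78 to 3.95).

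Calls in the single-marker comparison were also made for Acot9, an acyl-CoA thioesterase, at 0.81 (SE 0.17, limma adjusted p = 0.0488), for Oxsm, the mitochondrial ketoacyl synthase, at -0.42 (SE 0.0841, limma adjusted p = 0.0396), and for Cd36, the scavenger receptor that takes up fatty acids, at -0.53 (SE 0.11, limma adjusted p = 0.0449). Cd36 read 3.24, 3.51 and 3.33 in the Ly49E+CD8aa+ arrays, 3.37, 3.54 and 3.16 in the Ly49E+CD8aa- arrays and 3.94, 3.95 and 3.78 in the Ly49E-CD8aa+ arrays, all below the 25th percentile of the arrays. It was higher where the macrophage and dendritic cell lists were higher, and their part in it was not tested. Each of these calls was lost without most arrays left out in turn, namely 7 of 9 for Acot9 (all but Ly49E+CD8aa+ replicate 1 and Ly49E+CD8aa- replicate 3), 8 of 9 for Oxsm (all but Ly49E-CD8aa+ replicate 3) and 8 of 9 for Cd36 (all but Ly49E+CD8aa- replicate 2), with limma adjusted p up to 0.18, 0.15 and 0.161. These calls of Acot9, Oxsm and Cd36 were also lost with the 6 arrays alone (limma adjusted p = 0.0642, 0.147 and 0.116). Centring on array medians lost them too (limma adjusted p = 0.0575, 0.0585 and 0.0672). The Ly49E difference of Oxsm was -0.33 and did not pass (limma adjusted p = 0.679). The lipid-sensing factors Nr1h3 (LXR alpha), Ppara and Pparg lay at 5.02 to 5.53, 4.85 to 5.11 and 4.56 to 4.89 with overlapping populations, and did not pass.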

How the data were processed

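RNA of 9 samples was read on single-channel arrays. The authors deposited a table of log2 values (1.84 to 13.8), made with RMA according to the submitters' processing notes; which RMA release, build and annotation were used is not stated there. Of 35556 rows, 21789 carried 1 symbol in the platform annotation and 1621 several; 21698 were matched to a current gene record. The row with the highest mean stood for a gene. A mean per population was fitted to all 9 arrays with limma 3.58.1 in R 4.3.3 (prior degrees of freedom 3.08, residual 6), 2-sided, with no replicate block or filter, with Benjamini-Hochberg adjustment over 19938 genes, after a check on simulated data. The median SE was 0.0976. Named with their arrays were called members, 8 fixed regulators and first-step enzymes, and then, per comparison, the 3 largest uncalled differences each way; further sterol enzymes and the Fads genes were added after their values were seen. Members and lists were chosen with earlier results of these data known. Alternatives were filters, normalization, moderation, weights, rows, a replicate block, the 6 arrays alone and leaving out each array. No detection calls were used, so a low level does not show absence. Array correlations within a population were 0.9915 to 0.9941. A planned comparison of proteins within families was not made.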

Additional observations from a re-analysis of the deposited data

How the results depend on the processing

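The number of members called was small, and it moved with the processing. Leaving out each array in turn, the F test called 0 to 2 members (2 with all), the CD8aa comparison 1 to 3 higher (3 with all) and the single-marker comparison 0 to 3 lower (2 with all). With the 6 arrays of a comparison alone, 1 member was higher in the CD8aa comparison and 0 were lower in the single-marker comparison. The filter at the 25th percentile gave 4 members lower in the single-marker comparison, and the filter at the median left 1 member for the F test, since Abcd2 was not tested under it. The Ly49E comparison called 0 members in every alternative run. Members at an unadjusted p under 0.05 numbered 11 to 16 higher in the CD8aa comparison and 12 to 16 lower in the single-marker comparison over the omissions, and members whose arrays did not overlap 13 to 16 and 13 to 17; these counts were added after seeing the data.

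With the replicate block, 4 members were called by the F test, 4 higher in the CD8aa comparison (Elovl5, Scd2, Abcd2 and Hmgcs1, the last at limma's adjusted p = 0.0196) and 4 lower in the single-marker comparison (Elovl5, Scd2, Hmgcs1 at 0.0087 and Fdps at 0.0451, with Abcd2 no longer called at limma's adjusted p = 0.062). The pairing behind it is uncertain. Same-numbered arrays of different populations correlated at -0.063 to 0.222 in their deviations from the population means, over 0.1 in 4 of 9 pairs. Arrays of different numbers correlated at -0.169 to 0.103, over 0.1 in 1 of 18 pairs. Of the 9 arrays, 6 correlated best with their own number.

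Differences near 0 changed sign. With quantile normalization again, Elovl5 and Insig1 in the Ly49E comparison became -0.012 and -0.005, Pparg in the CD8aa comparison -0.006 and Nr1h3 in the single-marker comparison 0.017. Over the omissions of an array, the Ly49E differences ran from -0.031 to 0.079 for Elovl5, -0.034 to 0.07 for Fasn, -0.004 to 0.035 for Abcg1, -0.131 to 0.017 for Srebf2, -0.049 to 0.05 for Insig1, -0.142 to 0.007 for Hmgcs1 and -0.011 to 0.046 for Abca1. The single-marker differences ran from -0.089 to 0.012 for Abcg1, -0.027 to 0.137 for Pparg, -0.021 to 0.006 for Nr1h3 and -0.035 to 0.098 for Cpt1a, and the CD8aa difference of Pparg from -0.073 to 0.092. None of these was called, and the cause of the changes was not tested. Mgll, in both comparisons, and Slc27a6, in the CD8aa comparison, stayed called in the 18 alternatives run.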
